A study of Mus musculus with 28 samples.

Results

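Levels of 4 mouse genes that govern entry into meiosis, Stra8, Gm4969 (the name the table uses for Meiosin), Meioc and Ythdc2, were followed through a culture model of germ cell development. They were taken by gene symbol, with no measured value in the rule, and are 4 of the 53564 genes listed. Mouse cells of strain C57BL6 were sequenced in 8 groups of 2 libraries. LT cells were wild type embryonic stem cells with long telomeres. ST cells were generation 4 (G4) embryonic stem cells without Terc, the telomerase RNA, and had short telomeres. RT cells were Terc-rescued embryonic stem cells. Each line passed through 2 days as epiblast-like cells and was then induced towards primordial germ cells (PGCs, the precursors of eggs and sperm) with BMP4, SCF, EGF and LIF. Day-1 embryoid bodies (1dEB) were taken after 1 day of that induction. For day-1 meiocyte-like cells (1dMeioLC), the cells induced for 4 days were mixed into aggregates with gonadal somatic cells from Actin-GFP female embryos of E12.5. They stayed 1 day in medium with 3 µM retinoic acid, and the cells without GFP were then sorted. PGCs sorted from E10.5 gonads with CD61 and SSEA1 antibodies were sequenced at once (E10.5PGC) or after the same co-culture (PGC-1dMeioLC). The labels do not say whether both libraries of a group came from separate cultures, lines or animals, so the p-values measure the spread between these libraries, which may be technical. Day-4 PGC-like cells, from which 1dMeioLC were made, and epiblast-like cells were not analysed here.

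In mice, retinoic acid turns on Stra8 in germ cells of the fetal ovary at the start of meiosis. STRA8 and MEIOSIN bind each other and act together as a transcription factor that raises genes of meiotic prophase. MEIOC and the RNA helicase YTHDC2, which carries a YTH domain of the kind that reads N6-methyladenosine (m6A) in RNA, form an RNA-binding complex that represses mitotic transcripts and holds cells in prophase. PRC1.6, a Polycomb complex with the DNA-binding subunits E2F6, MGA and MAX, keeps many meiotic genes silent before that point.

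Stra8 lies on mm10 chromosome 6 (34920163 to 34939344, plus strand), Gm4969 on chromosome 7 (19099046 to 19118368, minus strand) and Meioc on chromosome 11 (102663716 to 102682237, plus strand) in GENCODE M21. They are annotated as protein coding, and none of them overlaps another gene of that annotation. Their promoters are shown so that the 3 can be compared in the motifs of the regulators named above. Each runs 5′ to 3′ from 250 bases before the RefSeq start to 50 bases after it, on GRCm38.p6: chr6:34920698-34920997 on the plus strand for Stra8, chr7:19118295-19118594 on the minus strand for Gm4969 (Bhmg1 in RefSeq) and chr11:102665335-102665634 on the plus strand for Meioc. Capitals mark matches, on either strand, to CACGTG (the E-box bound by MAX with MGA), TCCCGC (core of the E2F site), CCTCAG (core of the STRA8 motif) or AGGTCA (the hexamer that retinoic acid receptors bind).
Stra8: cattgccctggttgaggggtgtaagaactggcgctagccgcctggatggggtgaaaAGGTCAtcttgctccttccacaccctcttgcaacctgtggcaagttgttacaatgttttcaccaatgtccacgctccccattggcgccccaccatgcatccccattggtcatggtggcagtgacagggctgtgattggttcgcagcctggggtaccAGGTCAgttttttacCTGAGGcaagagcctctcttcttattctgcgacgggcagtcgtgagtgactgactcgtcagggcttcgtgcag
Gm4969: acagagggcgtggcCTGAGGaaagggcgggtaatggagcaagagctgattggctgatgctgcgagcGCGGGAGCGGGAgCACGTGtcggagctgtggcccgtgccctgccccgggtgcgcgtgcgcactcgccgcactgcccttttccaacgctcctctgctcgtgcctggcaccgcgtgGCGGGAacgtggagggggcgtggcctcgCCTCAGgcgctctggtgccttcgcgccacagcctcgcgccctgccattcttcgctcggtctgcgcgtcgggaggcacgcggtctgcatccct
Meioc: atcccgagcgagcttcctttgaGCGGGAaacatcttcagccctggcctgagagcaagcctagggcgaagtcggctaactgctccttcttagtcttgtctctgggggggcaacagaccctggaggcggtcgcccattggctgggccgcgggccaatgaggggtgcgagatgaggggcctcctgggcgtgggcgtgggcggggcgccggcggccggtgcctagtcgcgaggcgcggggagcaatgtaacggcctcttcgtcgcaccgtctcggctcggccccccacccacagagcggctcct
The Stra8 promoter held AGGTCA 2 times, starting 194 and 38 bases before the start site, and CCTCAG 1 time on the other strand at 23 bases before it. The Gm4969 promoter held 1 CACGTG at 171 bases before the start, 3 matches to TCCCGC (184, 178 and 70 bases before it) and 2 to CCTCAG (236 and 42 bases before it), and no AGGTCA. The E-box stood next to a pair of adjoining TCCCGC matches, with no overlap between any of the matches. The Meioc promoter held 1 TCCCGC at 228 bases before the start and none of the other motifs. Among all 32851 promoters of the same length, CACGTG was present in 7.15%, TCCCGC in 20%, CCTCAG in 26.8% and AGGTCA in 16.3%. A match describes these letters in this window and is no measure of binding. The Stra8 and Meioc windows lie wholly within the GENCODE genes, downstream of their annotated starts, and other start sites were not scanned.

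Values are transcripts per 1000000 (TPM). Every library sums to the same total, which leaves its depth unknown. Between 13859 and 16784 genes reached 1 TPM per library, and Pearson's r between both libraries of a group was 0.978 to 0.989 across genes. Differences are on the log2(TPM + 1) scale, which understates changes of low genes, and come with limma's standard error and a p adjusted over the 21935 genes tested, called below 0.05. Nuclear protein-coding genes held 27.1% to 29.1% of TPM in RT 1dEB, against 44.0% to 44.4% in ST 1dEB, 38.6% to 38.8% in LT 1dEB and 54.2% to 61.2% in the other groups. Comparisons with RT 1dEB are therefore also given after dividing each library by its TPM in nuclear protein-coding genes (protein-coding scaling), which moved the median of all genes in RT minus ST 1dEB from -0.38 to 0.04. Terc was listed at 0 in all 4 ST libraries, at 0.699 to 5.39 TPM in the LT and RT libraries, and at 0 in both PGC-1dMeioLC libraries, whose labels name no knockout. All 9 germ cell markers reached 1 TPM in each 1dMeioLC group, with sums of 180 to 188 TPM in ST, 960 to 1001 in LT, 680 to 711 in RT and 1014 to 1034 in PGC-1dMeioLC. Reaching 1 TPM did not set these groups apart from 1dEB, where 9 markers did so in ST, 9 in LT and 8 in RT. The 1dEB sums were 175.1 to 177 TPM in ST, 215.7 to 218 in LT and 157.5 to 177.3 in RT. Gonadal somatic markers were also present after the sort, at 371 to 384 TPM in ST, 280 to 285 in LT, 212 to 214 in RT and 315 to 321 in PGC-1dMeioLC, against 26.7 to 27.7 in E10.5PGC. All 4 regulators passed the filter of 1 TPM in 2 libraries. Gm4969 did so through 4 libraries, both of PGC-1dMeioLC, ST 1dMeioLC replicate 1 and RT 1dMeioLC replicate 2, so that its being higher in cultured groups is in part what let it pass.

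Co-culture of embryonic PGCs with retinoic acid gives the reference response. Stra8, the retinoic acid target that opens the program, was at 0.813 and 1.03 TPM in E10.5PGC and at 747 and 744 TPM in PGC-1dMeioLC. Its mean was 810-fold higher after culture, and the log2 difference of 8.60 ± 0.17 (SE, limma, adjusted p = 1.98e-10) was larger than that of any other of the 21935 genes tested, with or without protein-coding scaling. Meioc, the RNA-binding partner of YTHDC2, stood at 0.289 and 0.268 TPM before culture and at 25.1 and 23.0 TPM after it. It rose by 4.29 ± 0.12 (adjusted p = 9.3e-10), and 68 genes had a larger absolute difference. Gm4969, the partner of STRA8, was at 0.170 and 0.175 TPM in E10.5PGC and reached only 1.81 and 2.54 TPM in PGC-1dMeioLC, a rise of 1.43 ± 0.17 (adjusted p = 4.86e-05). Ythdc2 moved least, from 2.78 and 1.79 TPM to 3.96 and 3.90 TPM, which was a rise of 0.60 ± 0.15 (adjusted p = 0.00542). For each of the 4 genes both cultured libraries lay above both uncultured ones. Without E10.5PGC replicate 2 the Ythdc2 difference was 0.38 and was not called (adjusted p = 0.0562), and after quantile normalization it was 0.09 (adjusted p = 0.673). All 4 were thus called higher, where 34.7% of all genes tested were called higher and 18.9% lower. Gm4969 is counted among these 4 although it passed the filter through cultured libraries alone. Over the same culture 7 of 9 germ cell markers fell and 2 rose. Their sum went from 3760 to 3774 TPM down to 1014 to 1034 TPM, mostly through Dppa3, at means of 3010 and 424 TPM. All 9 fibroblast and stroma markers rose, from a sum of 7.88 to 8.002 TPM up to 425 to 437 TPM. The part of both marker lists in the results was not tested. The TPM levels after culture, which are per transcript length, ran from Stra8 down through Meioc and Ythdc2 to Gm4969.

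**Figure D1:**
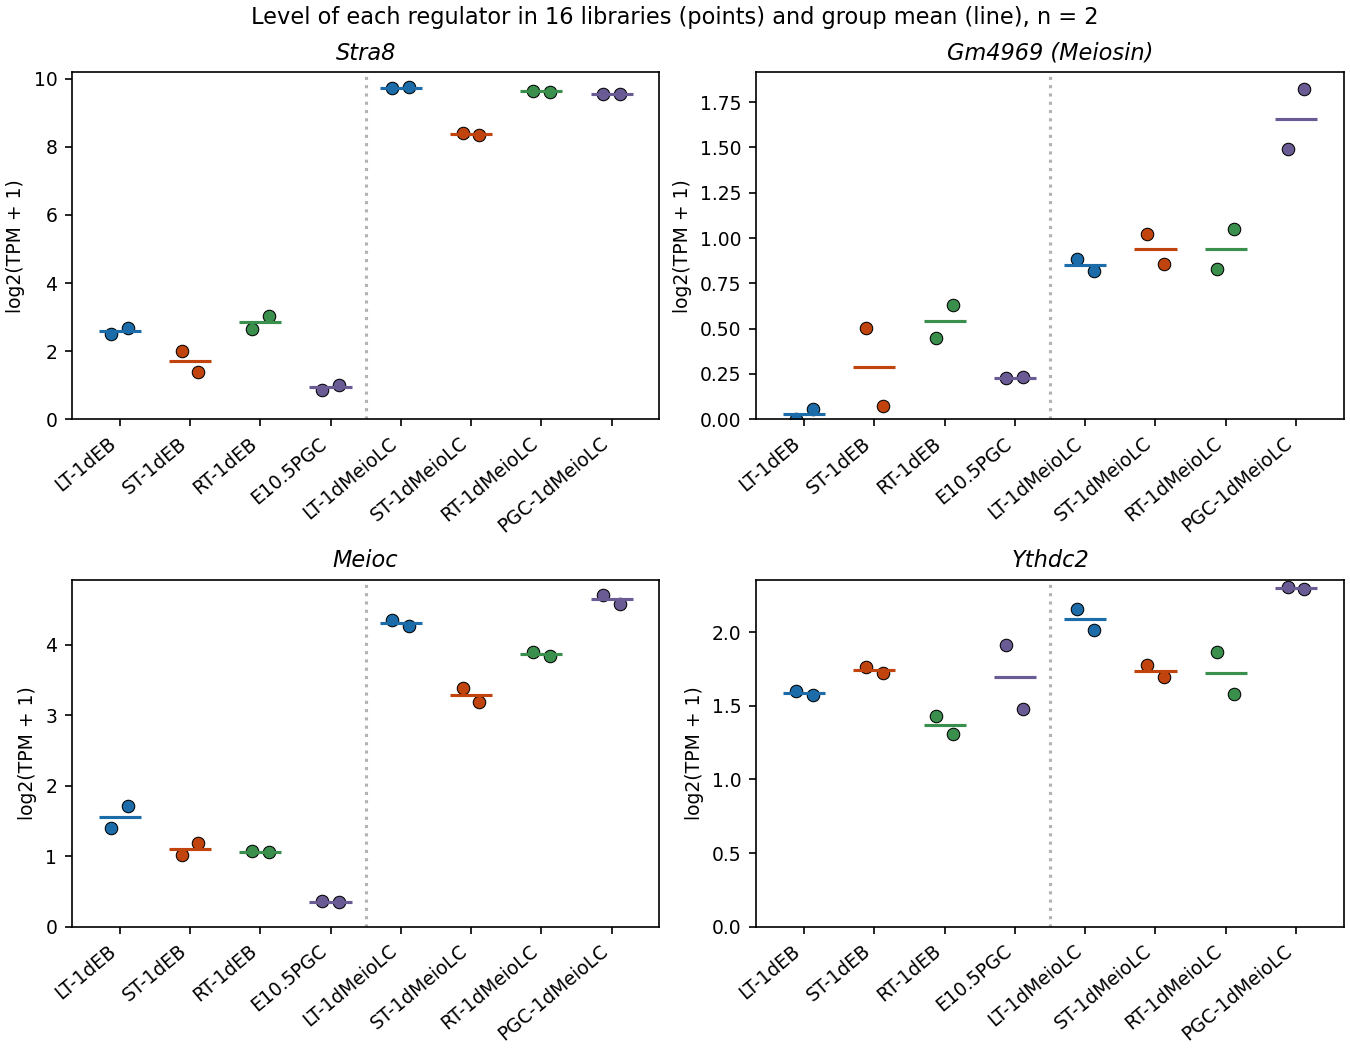
Level of each regulator as log2(TPM + 1) (vertical axis, a scale of its own in each panel) in the 2 libraries of each of 8 groups (points), with the group mean as a line; groups right of the dotted line had the retinoic acid co-culture. Stra8 and Meioc sit high in all 4 cultured groups and lowest among them in ST 1dMeioLC, Gm4969 is highest in PGC-1dMeioLC, and Ythdc2 spans a narrow range.

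Other genes of the pathway moved in the embryonic PGCs as follows. Of 35 meiotic prophase genes tested, 26 were higher and 3 lower, with a median of 1.05 beside 0.13 over all genes. Sycp1, a synaptonemal complex protein, rose by 4.05, the histone methyltransferase Prdm9 by 3.31, and the meiotic cohesin subunits Rec8 and Smc1b by 2.61 each. Of 18 genes of retinoic acid signalling and metabolism, 11 were higher and 3 lower, with a median of 1.30. Cyp26a1, which degrades retinoic acid and is one of its targets, rose by 5.99, Dhrs3, which reduces retinal, by 4.95, Cyp26b1 by 4.03 and the receptor Rarb by 3.53. The other entry regulators were divided, with 3 of 6 higher and 2 lower. Dazl, an RNA-binding protein that makes PGCs competent for meiosis, rose by 0.68, and Zglp1, a GATA-like factor of the oogenic program, fell by 2.10. Mitotic cell cycle genes had 3 of 10 higher and 7 lower, with Ccnb1 down by 1.10 and Ccnd2 up by 2.80. PRC1.6 subunits had 8 of 14 higher and 4 lower, among them E2f6 at 1.05, Max at 0.72 and Mga at 0.57, all higher. Of 13 m6A genes, 7 were higher and none lower, while the methyltransferase Mettl3 stood at 0.05 (adjusted p = 0.7) and the reader Ythdf2 at 0.10 (adjusted p = 0.18).

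In the stem cell lines, 1dMeioLC were set against 1dEB of the same line, an interval that spans the rest of the germ cell induction as well as the co-culture and the sort. Stra8 stood at 4.65 and 5.39 TPM in LT 1dEB and at 845 and 858 TPM in LT 1dMeioLC. In ST it went from 3.04 and 1.64 TPM to 336 and 323 TPM, and in RT from 5.29 and 7.17 TPM to 800 and 782 TPM. The log2 rise was 7.15 ± 0.17 in LT, 6.66 ± 0.17 in ST and 6.79 ± 0.17 in RT (limma, adjusted p of 1.1e-10, 2.7e-10 and 1.09e-10), and 11, 19 and 11 genes had larger absolute differences. With protein-coding scaling the rises were 6.56 in LT, 6.37 in ST and 5.77 in RT.

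Meioc also rose in every line. It was at 1.65 and 2.26 TPM in LT 1dEB and 19.3 and 18.2 TPM in LT 1dMeioLC, at 1.02 and 1.28 against 9.43 and 8.07 TPM in ST, and at 1.10 and 1.08 against 13.9 and 13.3 TPM in RT. The differences were 2.75, 2.18 and 2.81, each ± 0.12 (adjusted p of 7.73e-09, 5.8e-08 and 4.92e-09). After protein-coding scaling they were 2.24 in LT, 1.93 in ST and 2.06 in RT. Gm4969 was near its floor in 1dEB, listed at 0 and 0.0383 TPM in LT, 0.417 and 0.0523 TPM in ST and 0.362 and 0.551 TPM in RT. In 1dMeioLC it stood at 0.849 and 0.763 TPM in LT, 1.03 and 0.813 TPM in ST and 0.777 and 1.07 TPM in RT. It was called higher in LT (0.83 ± 0.17, adjusted p = 0.00174) and ST (0.65 ± 0.17, adjusted p = 0.0074) but not in RT (0.40 ± 0.17, adjusted p = 0.066). After protein-coding scaling these differences were 0.71, 0.54 and -0.04, with the same calls. The ST call was lost without ST 1dEB replicate 2 (adjusted p = 0.07) or ST 1dMeioLC replicate 1 (0.0505).

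Ythdc2, on mm10 chromosome 18 (44827746 to 44889724, plus strand, protein coding, with no overlapping gene), differed little between the stages. It was at 2.04 and 1.99 TPM in LT 1dEB and 3.47 and 3.05 TPM in LT 1dMeioLC, at 2.40 and 2.30 against 2.43 and 2.25 TPM in ST, and at 1.70 and 1.48 against 2.64 and 2.00 TPM in RT. Only LT was called (0.50 ± 0.15, adjusted p = 0.0127), and there the difference was 0.03 after protein-coding scaling and the call was lost without LT 1dEB replicate 2 (adjusted p = 0.0533) or LT 1dMeioLC replicate 1 (0.0782). In ST the difference was -0.01, with a 95% interval of -0.34 to 0.32, and -0.26 after protein-coding scaling (adjusted p = 0.16). In RT it was 0.35 on TPM (adjusted p = 0.0574) and -0.40 after protein-coding scaling (adjusted p = 0.0333), so its direction depended on the scaling. In all, 4 of 4 regulators were called higher in LT, 3 in ST and 2 in RT, and none lower. The LT and ST counts include Gm4969, which passed the filter through cultured libraries alone. Over all genes 40.4% were called higher and 24.0% lower in LT, 33.3% and 29.6% in ST, and 43.7% and 22.0% in RT. After protein-coding scaling these shares were 27.4% and 37.4% in LT, 25.6% and 37.6% in ST, and 23.4% and 45.3% in RT, and the members called were 3 higher in LT, 3 higher in ST, and 2 higher and 1 lower in RT.

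The neighbouring lists in LT showed 30 of 35 meiotic prophase genes higher and none lower between 1dEB and 1dMeioLC (median 1.67, all genes 0.19). In ST 28 were higher and none lower (median 1.34), and in RT 29 were higher and 1 lower (median 1.41). After protein-coding scaling 28 were higher and 2 lower in LT, 25 and 2 in ST, and 21 and 3 in RT. Dazl rose by 6.45 in LT, 4.67 in ST and 6.18 in RT, and Rbm46, an RNA-binding protein needed for meiotic prophase in mice, by 3.09, 2.43 and 2.93. Rarb rose by 3.88, 4.29 and 3.61, and Cyp26a1 by 4.71, 5.48 and 6.64. Among the PRC1.6 subunits Mga fell by 0.88, 0.90 and 0.88 and Max by 0.31, 1.01 and 0.36, while E2f6 rose by 1.12, 1.45 and 1.85. After protein-coding scaling the RT differences were 5.27 for Dazl, 2.21 for Rbm46, 3.24 for Rarb, 5.99 for Cyp26a1, -1.90 for Mga, -1.38 for Max and 0.97 for E2f6. On TPM the median of the 14 PRC1.6 subunits was -0.02 in LT, -0.09 in ST and -0.12 in RT. After scaling it was -0.58, -0.39 and -1.08. Scaling thus moved LT and ST too, and their values for the genes named here are given on TPM only. The gonadal somatic marker sums rose over the same interval, from 14.3 to 42.1 TPM over all 1dEB libraries to 212 to 384 TPM. The fibroblast and stroma sum rose in LT, from 22.2 to 25.3 TPM up to 349.6 to 362.5 TPM. It also rose in RT, from 181 to 197 TPM up to 363.9 to 369.7 TPM, but fell in ST, from 563 to 567 TPM down to 421.7 to 423.1 TPM. The part of both lists in these results was not tested.

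In the meiotic culture ST was set against LT 1dMeioLC. At both stages these lines differ in telomere length, in Terc and as cell lines, which cannot be told apart here. Stra8 was lower in ST, at 336 and 323 TPM against 845 and 858 TPM, so that LT held 2.58 times as much. The log2 difference was -1.37 ± 0.17 (limma, adjusted p = 0.000235), and it stayed between -1.40 and -1.34 with any 1 of the 4 libraries left out. Meioc was lower as well, at 9.43 and 8.07 TPM against 19.3 and 18.2 TPM, a difference of -1.02 ± 0.12 (adjusted p = 0.000125). Neither gene's libraries overlapped between the lines. Gm4969 did overlap, at 1.03 and 0.813 TPM in ST and 0.849 and 0.763 TPM in LT, with a difference of 0.09 and a 95% interval of -0.30 to 0.48. Ythdc2, at 2.43 and 2.25 TPM in ST and 3.47 and 3.05 TPM in LT, differed by -0.35 ± 0.15 without passing the threshold (adjusted p = 0.0945). Of the 4 regulators 2 were called lower and none higher, where 17.7% of all genes were called lower and 17.4% higher (13.6% and 20.4% after protein-coding scaling). The germ cell marker sum was 180 to 188 TPM in ST and 960 to 1001 TPM in LT. Most of it in LT was Dppa3 and Dazl, at means of 509 and 344 TPM, against 28.6 and 84.3 TPM in ST. Of the 9 markers 5 were called lower, Dppa3 at -4.11, Ddx4 at -2.38, Dazl at -2.02, Dnd1 at -1.38 and Kit at -0.65. Pou5f1 was 1.34 higher in ST, and Nanos3 (-0.48), Tfap2c (-0.33) and Prdm1 (-0.22) were not called. The gonadal somatic sum was 371 to 384 against 280 to 285 TPM. In bulk libraries fewer germ cells and less RNA per germ cell cannot be told apart, and the part of these markers in the Stra8 and Meioc results was not tested.

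The Terc-rescued cells were compared as RT against ST 1dMeioLC, where Terc, any difference in telomere length and cell line cannot be told apart either. Stra8 was at 800 and 782 TPM in RT and at 336 and 323 TPM in ST, and was higher by 1.26 ± 0.17 (adjusted p = 0.000428), or 2.40-fold. Meioc, at 13.9 and 13.3 TPM in RT and 9.43 and 8.07 TPM in ST, was higher by 0.59 ± 0.12 (adjusted p = 0.00358). Both lay above ST in each library. Gm4969 did not separate the lines (0.00, 95% interval -0.39 to 0.39), nor did Ythdc2 (-0.01, -0.34 to 0.32). Of the 4, 2 were called higher and none lower, where 13.1% of all genes were called higher and 20.2% lower (10.1% and 24.5% after protein-coding scaling). The germ cell marker sum moved the same way, from 180 to 188 TPM in ST to 680 to 711 TPM in RT. Dppa3, with means of 28.6 and 334 TPM, and Dazl, with 84.3 and 247 TPM, made up most of that change. Of the 9 markers 6 were called higher and 2 lower. The gonadal somatic sum moved the other way, from 371 to 384 to 212 to 214 TPM. The part of these markers in the result was not tested.

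RT and LT 1dMeioLC were the closest pair of lines for Stra8. The RT value of 800 and 782 TPM was lower than the LT value of 845 and 858 TPM in each library, but the difference of -0.11 was not called (adjusted p = 0.754, 95% interval -0.49 to 0.28). Meioc was 0.44 ± 0.12 lower in RT (adjusted p = 0.0278), and that call was lost without any 1 of the 4 libraries (adjusted p from 0.0777 to 0.131). Gm4969 differed by 0.09 and Ythdc2 by -0.36 (adjusted p of 0.815 and 0.119). Thus 1 of 4 was called lower, beside 12.4% of all genes, and none higher, beside 6.20%.

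**Figure D2:**
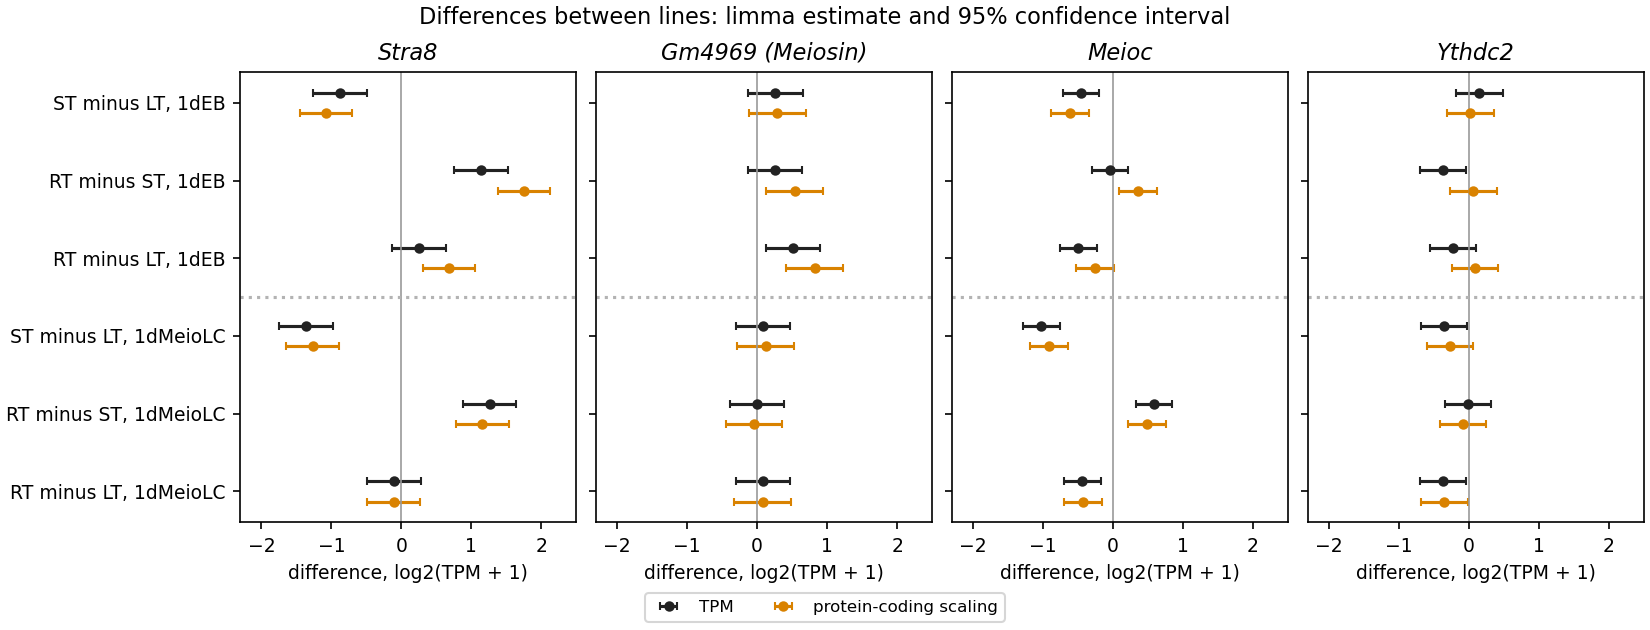
Differences between lines on the log2(TPM + 1) scale for each regulator at 1dEB (above the dotted line) and 1dMeioLC (below it), as limma estimates with 95% confidence intervals, for TPM (black) and after protein-coding scaling (orange). The scaling moves the comparisons with RT 1dEB, where Meioc in RT minus ST goes from -0.04 to 0.36, and changes those at 1dMeioLC little.

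Among the related lists in ST against LT 1dMeioLC, 4 of 6 other entry regulators were lower in ST and none higher (median -1.26, all genes 0.00). Zglp1 was at -2.23, Dazl at -2.02, Dmrt1, a DM-domain transcription factor of the gonad, at -1.79 and Rbm46 at -0.73. Of 35 meiotic prophase genes 18 were lower and none higher (median -0.67). Stag3, a meiotic cohesin subunit, was at -1.99, Hormad2, an axis protein, at -1.84, Tex12, of the synaptonemal complex, at -1.82, Smc1b at -1.70, Sycp3 at -1.36 and Rec8 at -0.81. Meiob, a single-strand DNA-binding protein of meiotic recombination, was at -2.61, with ST libraries as far apart as 0.258 and 3.27 TPM.

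Retinoic acid genes ran the other way, with 8 of 18 higher in ST, 1 lower and a median of 0.33. Dhrs3 was 1.20 higher in ST, the retinoic acid carrier Crabp2 1.02, the receptor Rarg 0.85 and Rarb 0.61, while the carrier Crabp1 was 1.58 lower. Cyp26a1, at 76.9 and 78.6 TPM in ST and 72.4 and 77.4 TPM in LT by lowest and highest library, differed by 0.05 (adjusted p = 0.94). PRC1.6 had 3 of 14 higher and 3 lower (median 0.01), with Hdac1 at 0.85 and Cbx3 at -0.84, and with no call of E2f6 (0.24), Max (0.01) or Mga (0.00). Of 13 m6A genes 1 was higher and 4 were lower, with the demethylase Alkbh5 at -0.99, Ythdf2 at -0.40 and Mettl3, not called, at 0.09. Mitotic genes had 3 of 10 higher and 2 lower, and Ccna2, a cyclin whose transcript is a known target of the MEIOC and YTHDC2 complex in mice, was at -0.16 (adjusted p = 0.098).

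In RT against ST 1dMeioLC, 5 of 6 other entry regulators were higher and none lower (median 1.18), with Dazl at 1.54, Dmrt1 at 1.52 and Zglp1 at 1.26. Meiotic prophase genes were higher in 13 of 35 and lower in 2 (median 0.44, all genes -0.02). Stag3 was at 1.51, Sycp3 at 0.84, Smc1b at 0.83 and Rec8 at 0.59, while Prdm9 was 1.07 lower in RT. Of the retinoic acid genes 2 were higher and 8 lower, with Crabp1 at 1.75, Cyp26a1 at 1.05, Dhrs3 at -1.33 and Rarb at -0.77. PRC1.6 had none higher and 4 of 14 lower, among them Mga at -0.30 and Max at -0.28. The ST libraries are shared by this comparison and ST against LT, so the opposite signs of their values are not independent.

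**Figure D3:**
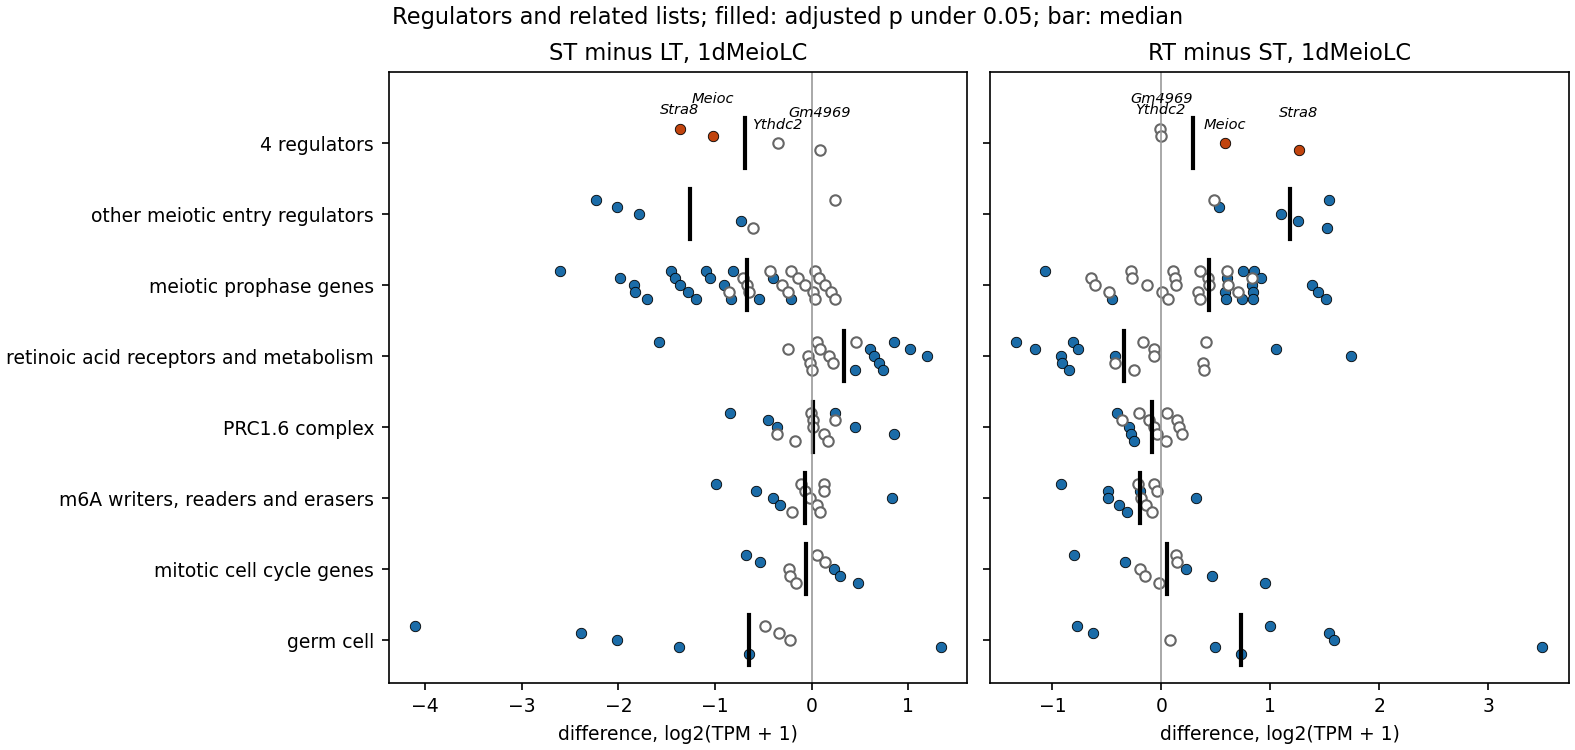
Differences on the log2(TPM + 1) scale (horizontal axis) of the 4 regulators and of the genes of 7 related lists (rows) between lines at 1dMeioLC, filled where the limma adjusted p was under 0.05, with each list's median as a bar. In ST minus LT the called meiotic prophase genes all lie below 0 and those of retinoic acid signalling lie above 0 except Crabp1, and Dazl stands in both the entry regulator and the germ cell rows.

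The regulators did not keep a fixed ratio to Dazl, a germ cell transcript. Per TPM of Dazl, Stra8 stood at 4.17 and 3.67 in ST 1dMeioLC, 2.42 and 2.53 in LT, 3.17 and 3.24 in RT and 1.64 and 1.59 in PGC-1dMeioLC. The ST libraries were thus highest on this ratio and lowest in Stra8 TPM. Meioc per TPM of Dazl was 0.117 and 0.0918 in ST, against 0.0552 and 0.0537 in LT, 0.0551 and 0.0553 in RT and 0.0553 and 0.0491 in PGC-1dMeioLC. The latter 3 groups lay close together on this ratio and ST above them. The same held for Ythdc2, at 0.0301 and 0.0255 in ST and at 0.00829 to 0.0105 in those 3 groups. Gm4969, near its floor, was at 0.0128 and 0.00924 in ST and spread from 0.00225 to 0.00542 over those 3 groups. These ratios describe unequal change of the genes and were not tested. They also depend on the marker chosen. Against LT, Stra8 was at -1.37 in ST, and Dppa3 (-4.11), Ddx4 (-2.38) and Dazl (-2.02) were lower still, with Dnd1 at -1.38. Kit (-0.65), Nanos3 (-0.48), Tfap2c (-0.33), Prdm1 (-0.22) and Pou5f1 (1.34) were not as far below LT as Stra8.

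At 1dEB, before any added retinoic acid, Stra8 was low in all lines and lowest in ST. Its 3.04 and 1.64 TPM in ST lay below the 4.65 and 5.39 TPM in LT, and the difference of -0.88 ± 0.17 was called (adjusted p = 0.00216). It stayed called with any 1 library left out, though at -0.57 without ST replicate 2, and was not called when only the 4 libraries compared were fitted (adjusted p = 0.0556). Meioc, at 1.02 and 1.28 TPM in ST and 1.65 and 2.26 TPM in LT, was lower by 0.45 ± 0.12 in ST (adjusted p = 0.0104), but not without ST replicate 1 (adjusted p = 0.0764) or LT replicate 2 (0.0934), or with only these 4 libraries fitted (0.136). Gm4969 was not called (0.26, 95% interval -0.13 to 0.65) and neither was Ythdc2 (0.15, -0.18 to 0.48). So 2 of 4 were called lower and none higher, where 11.6% of all genes were lower and 26.7% higher (19.3% and 22.2% after protein-coding scaling). Meiotic prophase genes had none higher and 14 of 35 lower at this stage (median -0.31, all genes 0.10), with Hormad1 at -1.10, Rec8 at -0.77 and Sycp3 at -0.66. The retinoic acid list had 10 of 18 higher and 1 lower, with Crabp1 at 2.48 and Aldh1a3, which makes retinoic acid, at 2.22, and with Cyp26a1 at -0.72. Fibroblast and stroma markers stood apart between these lines, at 563 to 567 TPM in ST and 22.2 to 25.3 TPM in LT, and their part in the result was not tested.

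RT 1dEB held Stra8 at 5.29 and 7.17 TPM, above both ST libraries. The difference from ST was 1.14 ± 0.17 on TPM (adjusted p = 0.000279) and 1.75 ± 0.17 after protein-coding scaling (adjusted p = 2.62e-05). Gm4969 differed by 0.25 on TPM and was not called, and by 0.53 ± 0.18 after scaling (adjusted p = 0.0415). For Meioc the sign depended on the scaling, at -0.04 on TPM (adjusted p = 0.84) and 0.36 after it (adjusted p = 0.041). Ythdc2 stood at -0.37 on TPM (adjusted p = 0.0596) and 0.07 after scaling. Thus 1 of 4 was called higher on TPM, beside 5.14% of all genes, and 3 of 4 after scaling, beside 19.5%, while 44.6% and 17.6% of all genes were called lower. All 9 fibroblast and stroma markers were lower in RT than in ST on both scales, with sums of 181 to 197 TPM against 563 to 567 TPM, and their part in the result was not tested.

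Against LT 1dEB, Stra8 in RT was not called on TPM (0.26, adjusted p = 0.274). RT replicate 1, at 5.29 TPM, lay within the LT range of 4.65 to 5.39 TPM. Stra8 was higher by 0.68 ± 0.17 after scaling (adjusted p = 0.00876). Gm4969 was higher in RT, at 0.362 and 0.551 TPM against a listed 0 and 0.0383 TPM in LT (0.51 ± 0.17, adjusted p = 0.0374), a call lost without any 1 of the 4 libraries (adjusted p from 0.0646 to 0.189). Meioc, at 1.10 and 1.08 TPM in RT and 1.65 and 2.26 TPM in LT, was lower by 0.49 ± 0.12 on TPM (adjusted p = 0.00629), but not after scaling (-0.25, adjusted p = 0.127) or without LT replicate 2 (0.0586). On TPM 1 of 4 regulators was called higher and 1 lower, where 10.7% of all genes were higher and 30.9% lower, and after scaling 2 were higher and none lower, beside 24.2% and 14.8%. Fibroblast and stroma markers, at 22.2 to 25.3 TPM in LT, were higher in RT in 8 of 9 on TPM and 9 of 9 after scaling, and their part in the result was not tested.

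Whether the lines differed more after the culture than at 1dEB was tested as an interaction. Of the 4 regulators Meioc alone passed. Its ST minus LT difference was -0.45 at 1dEB and -1.02 at 1dMeioLC, a change of -0.57 ± 0.17 (adjusted p = 0.0207), and its RT minus ST difference changed by 0.62 ± 0.17 (adjusted p = 0.0117). The first was not called without any 1 of ST 1dEB replicate 2 (adjusted p = 0.0705), LT 1dEB replicate 1 (0.0724), ST 1dMeioLC replicate 2 (0.0705) and LT 1dMeioLC replicate 1 (0.0661). Neither held after protein-coding scaling (-0.31 and 0.13, adjusted p of 0.19 and 0.6). The ST minus LT change was also not called with a pseudocount of 0.1. By group means LT held 1.70 times the Meioc of ST at 1dEB and 2.14 times at 1dMeioLC. The log2(TPM + 1) scale understates the first of these gaps. For Stra8 the change in ST minus LT was -0.49, with a 95% interval of -1.03 to 0.06. For Stra8 in RT minus ST it was 0.12 on TPM and -0.60 after protein-coding scaling (adjusted p of 0.723 and 0.0761), so that its sign depended on the scaling. The interaction of ST minus LT was called lower in 26.4% of all genes and higher in 12.2% (19.2% and 19.6% after scaling), and that of RT minus ST higher in 34.6% and lower in 7.65% (12.9% and 23.1%).

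How close the stem cell derived meiocyte-like cells came to those from embryonic PGCs differed by gene. LT 1dMeioLC, at 845 and 858 TPM of Stra8, stood slightly above the 747 and 744 TPM of PGC-1dMeioLC, a difference of 0.19 that was not called (adjusted p = 0.491), though it was with only these 4 libraries fitted (0.023). RT was not called either (0.09, 95% interval -0.30 to 0.47), though its 800 and 782 TPM lay above both PGC-1dMeioLC libraries. After protein-coding scaling the RT difference was -0.08. ST was lower by 1.17 ± 0.17 (adjusted p = 0.000402). Meioc was highest in PGC-1dMeioLC, at 25.1 and 23.0 TPM, and lower by 1.36 ± 0.12 in ST (adjusted p = 1.06e-05) and by 0.78 ± 0.12 in RT (adjusted p = 0.000698). In LT it differed by -0.34 on TPM (adjusted p = 0.0623) and by -0.49 after protein-coding scaling (adjusted p = 0.0167).

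Gm4969 separated the embryonic cells from all 3 lines. Its 1.81 and 2.54 TPM in PGC-1dMeioLC lay above all 6 line libraries, which spanned 0.763 to 1.07 TPM. The differences were -0.80 in LT, -0.72 in ST and -0.72 in RT, each ± 0.17 (adjusted p of 0.00919, 0.00766 and 0.0108). All 3 calls were lost without PGC-1dMeioLC replicate 2, the higher of the pair (adjusted p from 0.068 to 0.0863), and each also without 1 line library (0.0611 without LT replicate 2, 0.0515 without ST replicate 2, 0.0702 without RT replicate 1). With a pseudocount of 0.1 none of the 3 was called (adjusted p from 0.103 to 0.124). Ythdc2, at 3.96 and 3.90 TPM in PGC-1dMeioLC, was lower by 0.56 ± 0.15 in ST (adjusted p = 0.0115) and by 0.58 ± 0.15 in RT (adjusted p = 0.0139). These calls were lost without PGC-1dMeioLC replicate 1 (adjusted p = 0.051 and 0.0621), and also without ST replicate 2 (0.0569) or, for RT, PGC-1dMeioLC replicate 2 (0.0553) or RT replicate 2 (0.101). In all 1 of 4 regulators was called lower in LT, 4 in ST and 3 in RT, and none higher, in 3 comparisons that share the PGC-1dMeioLC libraries. Over all genes 8.25% were lower and 13.4% higher in LT (14.2% and 8.37% after protein-coding scaling), 18.8% and 23.1% in ST, and 17.0% and 14.4% in RT (24.5% and 10.2% after scaling). Of 35 meiotic prophase genes 5 were lower and 4 higher in LT, 19 lower and 1 higher in ST, and 16 lower and 2 higher in RT. Of 9 germ cell markers 3 were lower and 1 higher in LT, 7 lower and 1 higher in ST, and 6 lower and 1 higher in RT. Dazl was at -0.42 in LT, -2.44 in ST and -0.90 in RT. The part of these markers in the result was not tested.

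Ordered by mean over the 8 groups, Stra8 fell from LT 1dMeioLC (852 ± 8.76 TPM, SD, n = 2) through RT (791 ± 12.2) and PGC-1dMeioLC (745 ± 2.34) to ST (330 ± 9.35), then RT 1dEB (6.23 ± 1.33), LT 1dEB (5.02 ± 0.523), ST 1dEB (2.34 ± 0.994) and E10.5PGC (0.920 ± 0.152). Only RT and LT 1dEB overlapped among neighbours in that order. Meioc ran from PGC-1dMeioLC (24.1 ± 1.51 TPM) through LT (18.8 ± 0.780), RT (13.6 ± 0.397) and ST 1dMeioLC (8.75 ± 0.959) down to E10.5PGC (0.278 ± 0.0147), with overlap only between ST and RT 1dEB. Ythdc2 was highest in PGC-1dMeioLC (3.93 ± 0.0413 TPM) and LT 1dMeioLC (3.26 ± 0.302), and the neighbours from ST 1dEB down to LT 1dEB overlapped. For Gm4969 the order below PGC-1dMeioLC (2.17 ± 0.516 TPM) rested on values near or under 1 TPM, and the 3 line groups at 1dMeioLC overlapped.

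Across the 16 libraries the log2(TPM + 1) values of Stra8 and Meioc had a Pearson's r of 0.979, those of Gm4969 with either of 0.830 and 0.832, and those of Ythdc2 of 0.608 with Stra8 and 0.708 with Meioc. These libraries share groups and the contrast between cultured and uncultured cells, so r is a description with no test. Among about 10730 genes with at least 5 TPM in a group, the genes most like Stra8 were Fgf11 (0.987), Cyp26a1 (0.984), Ncoa1, a coactivator of nuclear receptors (0.980), Meioc and Nxf2 (0.977), an X-linked RNA export factor of germ cells. Cyp26a1, the other retinoic acid target among these, was at 158 to 166 TPM in RT 1dMeioLC, 69.5 to 78.6 TPM in the other cultured groups and at most 1.93 TPM elsewhere. Meioc was most like Nxf2 (0.991), Sycp1 (0.989), Stra8, Acp5 (0.977) and Fgf11 (0.975). Sycp1 followed it in order across the cultured groups, at 39.1 to 43.7 TPM in PGC-1dMeioLC, 28.0 to 29.8 in LT, 17.8 to 21.9 in RT and 10.9 to 11.8 in ST.

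Gm4969 had another company. Its closest genes were Dlx3 (0.938), a homeobox factor, and Cd48, Mpeg1, Cd14 and Cd36 (0.931 to 0.917), which are cell surface or secreted-pathway genes of macrophages and other blood cells. Mpeg1 was at 11.8 and 12.1 TPM in PGC-1dMeioLC, at 3.52 to 5.87 TPM in the 3 lines at 1dMeioLC and at 0.0922 and 0.0950 TPM in E10.5PGC. The leukocyte genes of the blood and endothelium markers were also highest in PGC-1dMeioLC. Lyz2, a lysozyme of macrophages and neutrophils, was at 227 to 235 TPM there against 15.0 to 79.5 TPM in the lines at 1dMeioLC, the macrophage gene Cd68 at 68.5 to 72.4 against 12.2 to 42.7 TPM, and the pan-leukocyte gene Ptprc at 1.25 to 1.30 against 0.128 to 0.623 TPM. The sum over that list, at 729 to 744 TPM in PGC-1dMeioLC and 792 to 1511 TPM in the lines, was mostly the haemoglobin gene Hba-a1, at 405 to 424 and 685 to 1468 TPM. Among the lines Cd68 was at 12.2 to 15.4 TPM in ST, 38.2 to 40.4 TPM in LT and 40.5 to 42.7 TPM in RT. Gm4969, at 0.763 to 1.07 TPM, overlapped between these lines. The part of such blood cells in the Gm4969 level was not tested. Ythdc2 was most like Fcho2 (0.920), AW549877, Lsm14b, Nek1 and Nfatc3 (0.892), with lower r than the others.

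**Figure D4:**
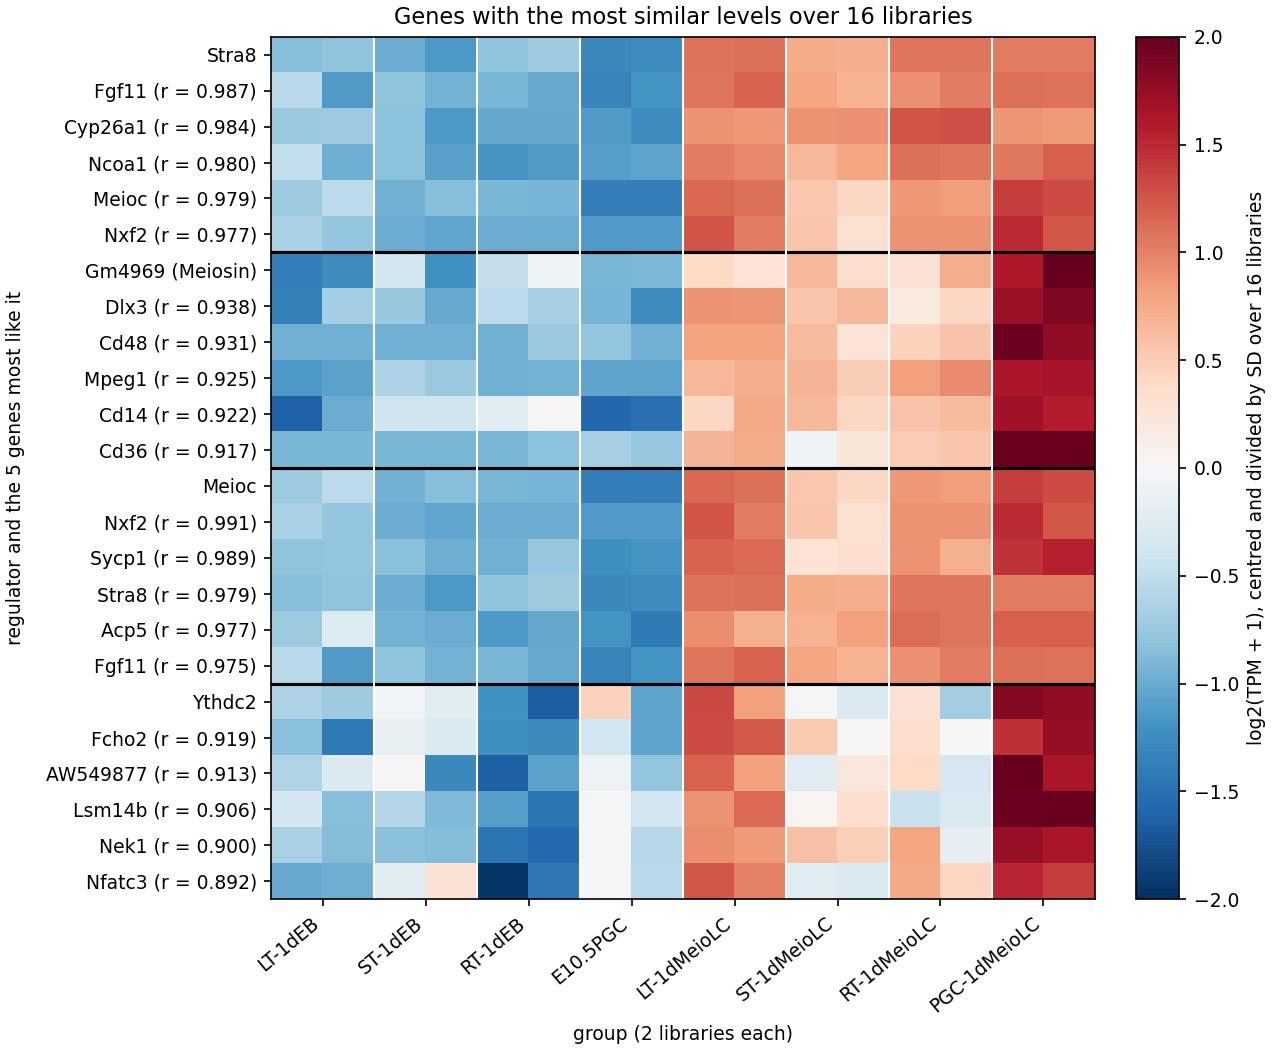
Levels over 16 libraries (columns, 2 per group) of each regulator and the 5 genes most like it (rows, with Pearson's r), as log2(TPM + 1) centred and divided by the SD of the row. The Stra8 and Meioc blocks are high in all cultured groups, the Gm4969 block is highest in PGC-1dMeioLC, and the Ythdc2 block is more mixed.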

How the data were processed

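RNA was measured by sequencing in 16 libraries, 2 in each of 8 groups, and groups and replicate numbers came from the labels. The authors deposited a table of TPM values per gene, made from total RNA with an NEBNext Ultra kit per the labels' protocols. Per the submitters' processing notes, Bowtie2, HISAT2, RSEM, R 3.4.2, DESeq2 and build mm10 were used. What each did, and whether strand was used, is not stated in the notes or labels. A further 12 value columns, under 6 names that each occur 2 times, were not used.

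From these, log2(TPM + 1) was fitted with limma 3.58.1 in R 4.3.3 over all 16 libraries without a replicate block, with a trended prior, for the 21935 genes at 1 TPM or more in at least 2 libraries. There were 13 comparisons of groups and 2 interactions, each with Benjamini-Hochberg adjustment and two-sided p. The fit was tested on simulated data. TPM keeps no depth, so no counting intervals are given. Alternatives were a pseudocount of 0.1, no filter, a filter of 4 libraries, protein-coding scaling, quantile normalization, a replicate block, only the groups compared, and each replicate left out. Same-numbered libraries did not deviate together, so the numbers were not treated as pairs.

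The regulators, the 6 pathway and 4 marker lists and the tests were chosen with earlier results of these data known. Genes named from a list are up to 4 called genes with the largest absolute difference in a comparison, and Rbm46, Zglp1, Dazl, Rarb, Cyp26a1, Sycp3, Rec8, Smc1b, Ccna2, E2f6, Mga, Max, Mettl3 and Ythdf2. A few others were named after their values were seen. The genes most like a regulator are the 5 with the highest Pearson's r over the 16 libraries among genes with a mean of at least 5 TPM in a group, leaving out symbols of the Gm-number and Rik kinds. Coordinates are from GENCODE M21, and promoter sequences, found for 3 of the 4 regulators, are from RefSeq on GRCm38.p6.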

Additional observations from a re-analysis of the deposited data

Results flagged for a closer look

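The difference between lines changed between 1dEB and 1dMeioLC for Meioc by an interaction test, which is what marks it here. The change was -0.57 for ST minus LT and 0.62 for RT minus ST (limma, adjusted p of 0.0207 and 0.0117). Meioc was at 1.02 and 1.28 TPM in ST 1dEB against 1.65 and 2.26 TPM in LT 1dEB, and at 9.43 and 8.07 against 19.3 and 18.2 TPM in 1dMeioLC. Both tests share the ST libraries, and after protein-coding scaling the changes were -0.31 and 0.13 and were not called. With a pseudocount of 0.1 the ST minus LT change was not called. By group means LT held 1.70 times the Meioc of ST at 1dEB and 2.14 times at 1dMeioLC, and the log2(TPM + 1) scale understates the first.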

How the results depend on the processing

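Of the alternatives per gene, 161 of 173 kept both the sign and the side of the threshold for Stra8, 146 of 173 for Ythdc2, 147 of 173 for Meioc and 134 of 164 for Gm4969. The sign turned in 28, of which 3 had a call before or after. Of these 3, protein-coding scaling gave 0.36 for Meioc in RT minus ST 1dEB and -0.40 for Ythdc2 in RT 1dMeioLC minus 1dEB, and quantile normalization gave -0.65 for Stra8 in the interaction of RT minus ST (adjusted p of 0.041, 0.0333 and 0.0445). The causes were not tested.

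The other 25 turned without a call on either side. Under protein-coding scaling Ythdc2 was at 0.065 in RT minus ST 1dEB, 0.088 in RT minus LT 1dEB and -0.15 in the interaction of RT minus ST. Gm4969 was at -0.045 in RT minus ST 1dMeioLC and -0.037 in RT 1dMeioLC minus 1dEB, and Stra8 at -0.076 in RT minus PGC 1dMeioLC and -0.60 in the interaction of RT minus ST. Quantile normalization gave -0.13 for Ythdc2 in ST minus LT 1dEB and 0.080 in RT minus ST 1dMeioLC, 0.15 for Meioc in RT minus ST 1dEB, -0.014 for Gm4969 in RT minus ST 1dMeioLC and -0.090 for Stra8 in RT minus PGC 1dMeioLC. A pseudocount of 0.1 gave -0.0032 for Gm4969 in RT minus ST 1dMeioLC and -0.16 for Stra8 in the interaction of RT minus ST. With 1 library left out, Meioc ran from -0.13 to 0.049 in RT minus ST 1dEB and Stra8 from -0.18 to 0.43 in the interaction of RT minus ST. Gm4969 ran from -0.11 to 0.11 in RT minus ST 1dMeioLC, from -0.023 to 0.20 in RT minus LT 1dMeioLC and from -0.39 to 0.041 in the interaction of ST minus LT. Ythdc2 ran from -0.15 to 0.13 in RT minus ST 1dMeioLC and from -0.045 to 0.033 in ST 1dMeioLC minus 1dEB.

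The number of the 4 regulators called moved by more than 1.5 times as follows. With a pseudocount of 0.1 it went from 1 to 0 in RT minus LT 1dMeioLC, LT minus PGC 1dMeioLC and the interaction of ST minus LT. Without the filter it went from 2 to 1 in RT minus LT 1dEB. Protein-coding scaling took it from 1 to 3 in RT minus ST 1dEB, from 1 to 2 in LT minus PGC 1dMeioLC and from 1 to 0 in both interactions. Quantile normalization took it from 1 to 0 in RT minus LT 1dMeioLC and the interaction of ST minus LT, and from 1 to 2 in LT minus PGC 1dMeioLC and the interaction of RT minus ST. With only the groups compared, which leaves fewer samples to estimate the spread and Gm4969 untested at 1dEB, it went from 2 to 0 in ST minus LT and RT minus LT 1dEB, from 3 to 1 in RT minus PGC 1dMeioLC and from 1 to 0 in the interaction of ST minus LT. With 1 library left out it was 1 to 2 in ST minus LT 1dEB, 0 to 1 in RT minus LT 1dEB, LT minus PGC 1dMeioLC and the interaction of ST minus LT, 0 in RT minus LT 1dMeioLC, 2 to 4 in ST minus PGC and 1 to 2 in RT minus PGC 1dMeioLC. Smaller moves without leaving out a library were of 1 regulator each. They gave 3 in ST minus PGC and 2 in RT minus PGC 1dMeioLC with the pseudocount, 3 in LT 1dMeioLC minus 1dEB under both scalings and with only the groups compared, 3 in RT 1dMeioLC minus 1dEB under both scalings and the replicate block, 3 in PGC-1dMeioLC minus E10.5PGC after quantile normalization and with only the groups compared, and 2 in ST 1dMeioLC minus 1dEB with only the groups compared. A group left with 1 library was assumed to vary like the others.

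The deviations of same-numbered libraries correlated between -0.0336 and 0.0425, with 0 of 28 pairs above 0.1. A replicate block took the regulators called from 1 to 2 in RT minus ST 1dEB, from 2 to 1 in RT minus LT 1dEB and from 1 to 2 in the interaction of ST minus LT, and the genes called in ST minus LT 1dEB from 8417 to 8288.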
